A study of Drosophila melanogaster with 3 samples.

Results

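Binding of ZELDA (ZLD) at late mitotic cycle 14 was compared with its binding at mitotic cycle 13, over 11966 genomic sites. A site was a peak of either library, with the midpoints of peak intervals joined when they lay within 150 bp of each other. The peaks of all stages of the series gave 16200 such sites. ZLD was immunoprecipitated from fixed chromatin of wild-type Oregon R embryos and the recovered DNA was sequenced (ChIP-seq), with 1 library per stage. Both groups were untreated embryos of the same strain. Embryos for late cycle 14 were harvested 180 to 210 min after laying and gave 6 µg of chromatin for the immunoprecipitation, and those for cycle 13 were harvested 120 to 150 min after laying and gave 6.6 µg. The embryos were sorted by hand by their appearance and not by their cycle, so each library holds embryos of neighbouring stages, and the sample called cycle 13 covers late cycle 13 and early cycle 14. Antibodies directed at the zinc fingers of ZLD had been taken out beforehand, since other proteins carry such fingers. With no second library at either stage, the differences below are sizes without a test, and their 95% intervals cover the counting of reads only.

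ZLD is a zinc-finger protein that the mother loads into the egg and that binds CAGGTAG and related heptamers. It is known as an early activator of the zygotic genome in flies, and its binding marks promoters and enhancers of genes that pattern the embryo. Between cycle 13 and late cycle 14 the syncytial blastoderm is divided into cells, transcription of the zygotic genome becomes widespread, and the patterning genes pass from broad early domains to segmental and tissue-specific expression.

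The late cycle 14 library held 17481411 mapped reads and the cycle 13 library 18870755. Counting reads with the same start and strand as 1, 41% of the reads remained at late cycle 14 and 50.9% at cycle 13, and the others were copies. Of all reads, 10496711 overlapped a site at late cycle 14 and 10913404 at cycle 13. The value of a site is the number of reads, each extended to 150 bp, that overlap the 300 bp around its midpoint, per 10000000 reads of its library. A typical stretch of 300 bp on the chromosome arms had 12.0 at late cycle 14 and 12.2 at cycle 13. Positions are on the dm3 assembly.

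Most sites were called as peaks at both stages. The late cycle 14 list held 9432 peaks and the cycle 13 list 10471, and 7935 sites were in both. These were 66.3% of all sites, 84.1% of the 9431 sites of the late cycle 14 list and 75.8% of the 10470 sites of the cycle 13 list. The share of all sites moved with the joining distance, to 62.3% within 50 bp and 67.3% within 300 bp. Where both lists had a peak, the midpoints lay a median of 10 bp apart, and in 6859 sites, or 86.4%, they were within 20 bp. A further 1496 sites were in the late cycle 14 list only and 2535 in the cycle 13 list only. Absence from a list did not mean a value at the median background. How many stretches outside the sites also reach 2 times that background is not given here. Of the sites missing from the late cycle 14 list, 2446 of 2535 had at least 2 times the background of that library there, and of those missing from the cycle 13 list, 1494 of 1496 did so at cycle 13.

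Most sites differed by less than 2-fold between the stages, and more of the larger differences were losses than gains. The median value was 169 at late cycle 14 and 181 at cycle 13, and the median log2 ratio of late cycle 14 over cycle 13 was 0.02, with quartiles of -0.67 and 0.49. At late cycle 14, 472 sites were higher by 2-fold or more, which is 3.94% of all sites, and 1919 were lower by 2-fold or more, which is 16%. Within 1.25-fold lay 3459 sites, or 28.9%, while 2326 sites were higher and 3320 lower by 1.5-fold or more. At a threshold of 3-fold 7 sites were higher and 802 lower, and at 4-fold 0 were higher and 377 lower. A difference of 8-fold or more was present at 46 sites, each lower at late cycle 14. The ratios ran from -5.16 to 1.73 on the log2 scale, further on the side of loss. Scaling by the median ratio of the shared sites gave 244 higher and 2295 lower, and keeping 1 read per position and strand gave 194 higher and 1189 lower. In a library of whole embryos, binding in fewer nuclei and less binding in each nucleus cannot be told apart.

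The direction went with list membership, which the same reads determined, so the following is a description. Sites in the late cycle 14 list only had a median value of 125 at late cycle 14 and 78.4 at cycle 13, with a median log2 ratio of 0.65, and 249 of them were higher by 2-fold or more and 4 lower. Sites in the cycle 13 list only had a median value of 62.4 at late cycle 14 and 122 at cycle 13, with a median log2 ratio of -1.04, and 2 were higher by 2-fold or more and 1330 lower. Sites in both lists had medians of 271 at late cycle 14 and 272 at cycle 13, with a median log2 ratio of 0.12, and 221 were higher by 2-fold or more and 585 lower. The deposited peak heights of these shared sites, which come from the same reads, gave 272 higher and 603 lower, and the sign was the same as that of the read ratio at 96.5% of them.

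**Figure D1:**
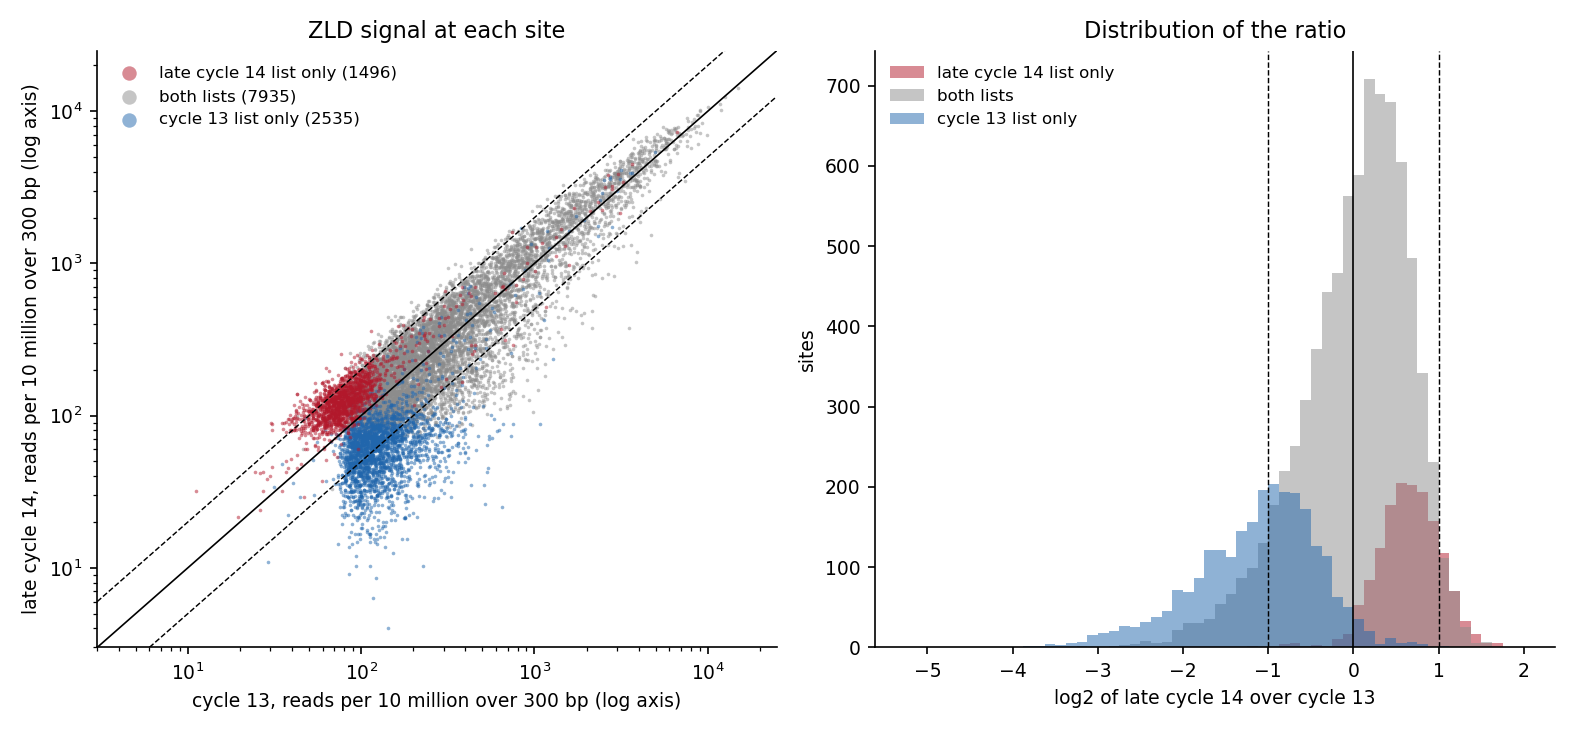
Left, the value of each of the 11966 sites at late cycle 14 (vertical) against cycle 13 (horizontal), in reads per 10000000 over 300 bp on log axes, with sites coloured by the list that held them and lines at equality and at 2-fold in each direction. Right, the number of sites by log2 ratio of late cycle 14 over cycle 13. The cloud is wider below the line of equality, where 1919 sites passed 2-fold, than above it, where 472 did.

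Mean coverage peaked at the midpoint at both stages, in sites that differed and in sites that did not. In the 471 sites on the chromosome arms that were higher by 2-fold or more, mean coverage at the midpoint was 227 at late cycle 14 and 101 at cycle 13. In the 1836 that were lower, it was 68.3 at late cycle 14 and 203 at cycle 13. The 3406 sites within 1.25-fold were stronger at both stages, with 496 at late cycle 14 and 475 at cycle 13. Around these sites the coverage differed in the same direction: at 600 bp from the midpoint, on the side of lower coordinates, it was 34.0 at late cycle 14 and 20.9 at cycle 13 around the higher sites, and 19.4 at late cycle 14 and 30.4 at cycle 13 around the lower ones.

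**Figure D2:**
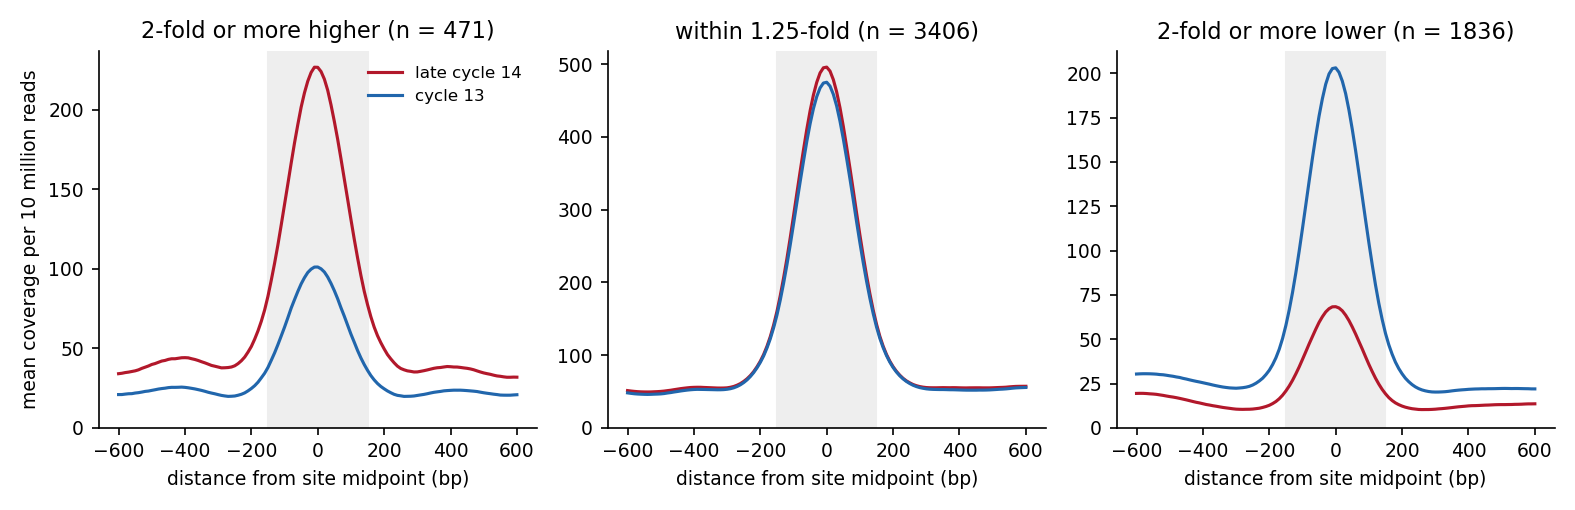
Mean coverage per 10000000 reads (vertical) by distance from the site midpoint in bp (horizontal), at late cycle 14 (red) and cycle 13 (blue), for sites higher by 2-fold or more, within 1.25-fold, and lower by 2-fold or more. The grey band is the 300 bp over which reads were counted. Each set peaks at the midpoint in both libraries, and the vertical scales differ between panels.

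Losses were rarer at the strongest sites. The sites were divided into 10 equal parts by the higher of their values, and the median log2 ratio ran from -0.31 in the weakest part to 0.22 in the strongest. In the strongest part, whose higher values began at 1383, 42 of 1196 sites (3.51%) were lower by 2-fold or more and 22 (1.84%) were higher. In the weakest part, whose higher values ended at 102, 235 of 1197 (19.6%) were lower and 38 (3.17%) higher. The share of sites that were lower stayed between 15.2% and 20.4% from the weakest part to the eighth and was 12.6% in the ninth.

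The 5 highest sites at late cycle 14 were also the 5 highest at cycle 13, and none of them differed by as much as 1.25-fold. The highest was an intergenic site at position 19549995 of chromosome arm 3L, 4459 bp from the start of CG9300, with 14267 at late cycle 14 and 14966 at cycle 13. A second intergenic site of that neighbourhood, at 19555522, had 10253 at late cycle 14 and 11995 at cycle 13. An intronic site 4867 bp from the start of Ten-m, which encodes a teneurin cell-surface protein, had 12496 at late cycle 14 and 12641 at cycle 13 (3L, 22396060). At the promoter of btsz, which encodes a synaptotagmin-like protein, the value was 11091 at late cycle 14 and 11818 at cycle 13 (3R, 10643877). At the promoter of dpn, which encodes a bHLH repressor that acts in neural precursors and in sex determination, it was 10747 at late cycle 14 and 10049.9 at cycle 13 (2R, 4119930). The log2 ratios of the 5 sites ran from -0.23 to 0.10, so the strongest binding differed little between the stages.

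The 10 largest gains were between 2.45-fold and 2.94-fold. They were taken from the 2966 sites on the chromosome arms whose higher value was at or above the 75th percentile of 478. The first was an intronic site at position 311472 of the X chromosome, inside CG32816 and 7705 bp from the start of l(1)sc, a proneural bHLH gene of the achaete-scute complex. It had 927 at late cycle 14 and 316 at cycle 13, a log2 ratio of 1.55 (1.42 to 1.69). A site at 5647740 on 3L, 42 bp from lin-28, which encodes an RNA-binding protein, had 559 at late cycle 14 and 193 at cycle 13, a log2 ratio of 1.54 (1.36 to 1.71).

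A neighbouring pair of gains was intronic, nearest to the start of naked cuticle (nkd), a segment polarity gene whose product restrains Wnt signalling. The site at 19029237 on 3L had 1239.6 at late cycle 14 and 433 at cycle 13, and the site at 19026827 had 988 at late cycle 14 and 349 at cycle 13. The log2 ratios were 1.52 (1.40 to 1.63) and 1.50 (1.37 to 1.64), so both sites were higher by nearly the same factor.

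The other 6 of the 10 largest gains had log2 ratios from 1.29 to 1.36, and none carried a label in the tables used. A site inside brat, which encodes a translational repressor, had 720.2 at late cycle 14 and 285 at cycle 13 (2L, 19139970). A site 7586 bp from argos, which encodes a secreted inhibitor of the EGF receptor, had 963 at late cycle 14 and 376 at cycle 13 (3L, 16484387). A site 3432 bp from dan, a nuclear factor of antennal development, had 515 at late cycle 14 and 209 at cycle 13 (3R, 21007302). All 10 sites were in both lists. When copies of reads were removed, keeping 1 read per position and strand, the log2 ratios of the 10 gains were 0.91 to 1.16 and 3 of them still reached 2-fold. These sites had 858 to 2167 reads at late cycle 14, while this setting can count at most 898 at a site. Those read numbers include copies. How much of the change in these ratios goes with the limit and how much with the copies was not tested.

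The largest losses were far larger than the gains, and several lay in coding sequence. At 4480505 on 3L, in coding sequence 229 bp from the start of CG7465, 44 reads at late cycle 14 stood against 1234 at cycle 13, or 25.2 and 654 per 10000000. This site was 26.0-fold lower at late cycle 14, with a log2 ratio of -4.70 (-5.17 to -4.27). At 14893780 on 2R, in coding sequence with CG15105 as the gene of the nearest start, the value was 26.3 at late cycle 14 and 522 at cycle 13, a log2 ratio of -4.31. At 4457590 on 3L, in coding sequence 591 bp from the start of CG11345, it was 45.2 at late cycle 14 and 539 at cycle 13, a log2 ratio of -3.58. At late cycle 14 the first 2 of these sites had little more than 2 times the genomic background.

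The strongest site among the losses kept a peak at late cycle 14. It lay in coding sequence 1940 bp from the start of CG5707, at 2190215 on 3L, and had 378 at late cycle 14 and 3536 at cycle 13, a log2 ratio of -3.23 (-3.34 to -3.11). With copies of reads removed its log2 ratio was -0.89, and those of the other 9 losses were -1.84 to -3.47. Each of the 10 had more reads at cycle 13, copies included, than the 898 that this setting can count at a site. The site of CG5707 had 6673. How much of the change in their ratios goes with this limit and how much with the copies was not tested. At the promoter of Teh4, a relative of the tipE sodium channel subunit, the value was 106 at late cycle 14 and 981 at cycle 13, a log2 ratio of -3.21 (3L, 4177540). The other 5 losses were intronic or intergenic. The intronic site 3229 bp from the start of CG31082 had 34.9 at late cycle 14 and 511 at cycle 13 (3R, 22413335), and the intergenic site 6027 bp from the start of RpL10Aa had 42.9 at late cycle 14 and 532 at cycle 13 (3R, 10857050).

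The remaining 3 losses were intronic, and the gene named is that of the nearest start. The site nearest to Gprk1, which encodes a kinase of G protein coupled receptors, had 87.5 at late cycle 14 and 1075 at cycle 13 (2R, 288730). The site nearest to Syx17, which encodes a syntaxin, had 73.2 at late cycle 14 and 738 at cycle 13 (3L, 4398400). The site nearest to boi, which encodes a co-receptor for Hedgehog, had 88.7 at late cycle 14 and 755 at cycle 13 (X, 2375400). Of the 10 largest losses, 8 were in the cycle 13 list only.

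Sites that were lower and sites that were not stood side by side along the chromosome. The losses near CG7465, CG11345, Syx17 and Teh4 lie in the same 400 kb of 3L (4100001 to 4500000), a stretch singled out after its values were seen. Of its 54 sites, 13 were lower by 2-fold or more and 9 by 4-fold or more, while 29 had a ratio above 0 and the median log2 ratio was 0.07. Across the arms, neighbours 450 to 2000 bp apart differed from each other by 2-fold or more in 15.4% of 3677 pairs, those 2000 to 20000 bp apart in 31.2% of 5645 pairs, and those 20000 to 50000 bp apart in 39.4% of 1362 pairs. Pairs of a site higher by 2-fold or more and a site lower by 2-fold or more numbered 4 of the 3677 at 450 to 2000 bp. There were 41 among the 5645 pairs at 2000 to 20000 bp and 17 among the 1362 at 20000 to 50000 bp. Of all sites on the arms, 4.01% were higher and 15.6% lower by 2-fold or more. The Spearman coefficient of the ratios of neighbours was 0.54, 0.24 and 0.18 over these distances, as a description of sites that share libraries and, at the shortest distances, overlapping fragments. In stretches of 100000 bp with at least 10 sites, the median ratio was above 0 in 311 of 523, at or above 0.5 in 52, and at or below -1 in 9.

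**Figure D3:**
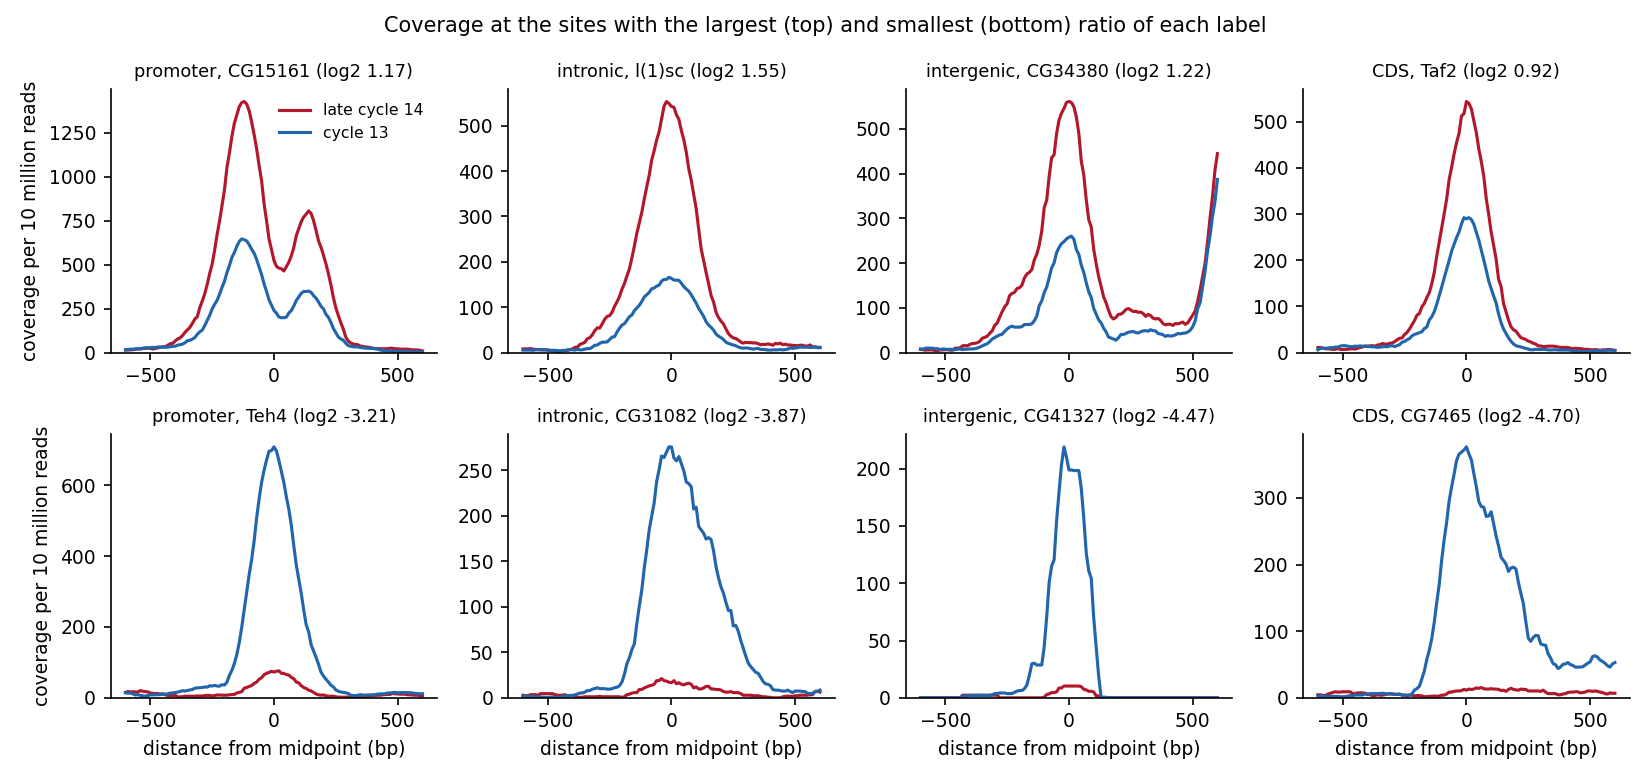
Coverage per 10000000 reads (vertical) by distance from the site midpoint in bp (horizontal) at late cycle 14 (red) and cycle 13 (blue), for the site with the largest ratio (top) and the smallest ratio (bottom) of each genomic label, with the gene whose start is nearest and the log2 ratio above each panel. The vertical scales differ. At the 4 sites of the lower row the late cycle 14 trace stays below 77 at every position shown.

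Sites in coding sequence had the lowest ratios of the genomic labels. The study's peak tables give each listed peak a label (promoter, UTR, coding sequence, intron or intergenic) and a nearest gene, and 2561 sites could be labelled from the rows used, which hold the strongest peaks of each library and of the pooled libraries. Among sites with a higher value of 1000 or more, 96.3% or more carried a label, and these 1561 sites are described here. Over all of them the median log2 ratio was 0.23, with 39 (2.5%) higher by 2-fold or more and 82 (5.25%) lower. At 162 sites in coding sequence the median was -0.37, and 36 of them (22.2%) were lower by 2-fold or more and none higher.

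Apart from 13 sites in 3′ UTRs, with a median of 0.11, the other labels lay close to each other. The median was 0.26 at 269 promoters, 0.31 at 36 sites in 5′ UTRs, 0.29 at 589 intronic sites and 0.22 at 492 intergenic sites. Promoters had 8 sites (2.97%) that were higher by 2-fold or more and 6 (2.23%) lower. Introns had 21 (3.57%) higher and 16 (2.72%) lower, and intergenic sequence 10 (2.03%) higher and 24 (4.88%) lower. Between 1000 and 2000, the median was -0.51 in coding sequence and 0.41 at promoters, and at 2000 or more it was -0.25 in coding sequence and 0.20 at promoters. Keeping only sites in both lists, the median was -0.37 in coding sequence and 0.26 at promoters.

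Weaker labelled sites cannot be read in this way. All 378 labelled sites under 500 owe their label to the tables of cycle 8 or of the pooled libraries, so the cycle 8 library had a part in choosing them. Between 500 and 1000, 48.3% of sites carried a label, and 26.4% of the labelled ones owed it only to those same tables. With all weaker labelled sites included, 219 of 421 coding sites (52%) were lower by 2-fold or more, against 547 of all 2561 labelled sites (21.4%). The median log2 ratio of the coding sites was -1.06, against 0.03 over all labelled sites. With copies of reads removed the median of these 421 coding sites was -0.36, while that of promoters, 5′ UTRs, introns and intergenic sites was 0.32 to 0.38. That setting counts at most 898 reads at a site, which limits the ratios of strong sites.

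**Figure D4:**
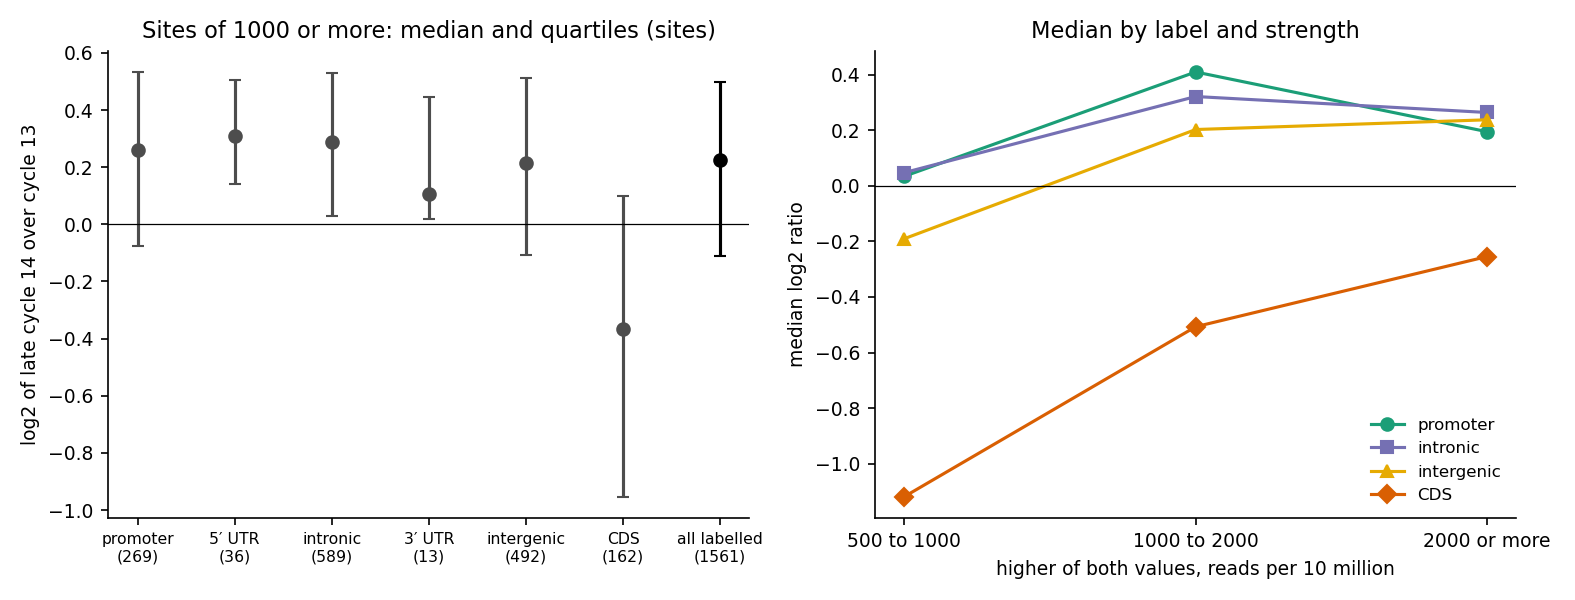
Left, median (point) and quartiles (bars) of the log2 ratio of late cycle 14 over cycle 13 by genomic label, for labelled sites with a higher value of 1000 reads per 10000000 or more. Right, the median by label for 3 bands of the higher value. Coding sequence (CDS) is lowest in each band, at -0.37 in the left panel against 0.23 for all labelled sites. In the band of 500 to 1000 only 48.3% of sites carry a label, so that band is less complete than the other bands.

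Single sites showed both directions at promoters. The promoter of CG15161 had 2661 at late cycle 14 and 1185 at cycle 13, a log2 ratio of 1.17, which was the largest of any labelled promoter and stood opposite the value of -3.21 at Teh4. The largest intergenic gain, 11670 bp from the start of CG34380, had 857 at late cycle 14 and 368 at cycle 13 (2L, 6178790). In coding sequence the highest ratio was 0.92, at a site near Taf2, which encodes a subunit of TFIID, with 776 at late cycle 14 and 411 at cycle 13 (3L, 9880432). No labelled coding site was thus 2-fold higher at late cycle 14.

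The chromosomes differed little, apart from the smallest and the unplaced ones. The median log2 ratio was 0.01 on 2L, -0.03 on 2R, 0.05 on 3L, 0.01 on 3R and 0.14 on the X chromosome. On chromosome 4 it was 0.36 over 128 sites, 6 of them higher by 2-fold or more and 6 lower. On heterochromatic and unplaced sequence it was -0.65 over 223 sites, with 1 higher and 83 (37.2%) lower. Of these 223 sites, 130 were in the late cycle 14 list and 213 in the cycle 13 list.

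Sites near developmental genes were lower by 2-fold or more in a smaller share than the other sites. Genes that pattern or build the early embryo were examined in 11 groups, through the sites within 5000 bp of each gene, with 1 group of ribosomal protein genes beside them. A site can lie near several genes, and oc, nkd, ase, slam and srp are not covered because no dm3 position was used for them. The developmental groups held 543 sites with a median log2 ratio of 0.16, of which 17 (3.13%) were higher by 2-fold or more and 31 (5.71%) lower. The other 11423 sites had a median of 0.01, with 455 (3.98%) higher and 1888 (16.5%) lower. The part of this that goes with the strength of the sites was not tested. In the 11 developmental groups taken singly, the share of sites higher by 2-fold or more was 0% to 5.88%, against 3.94% of all sites. The share lower was 0% to 12.3%, against 16% of all sites. Differences of scale between the libraries move the medians of all groups together, by 0.08 when the reads outside sites set the scale and by -0.12 when the shared sites do. A ratio above 0 was found at 326 of the 543 developmental sites and at 6085 of all 11966 sites. In the strongest of the 10 parts it was found at 823 of 1196. The counts above 0 given below for single genes rest on few sites and are descriptions to be read beside these shares.

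**Figure D5:**
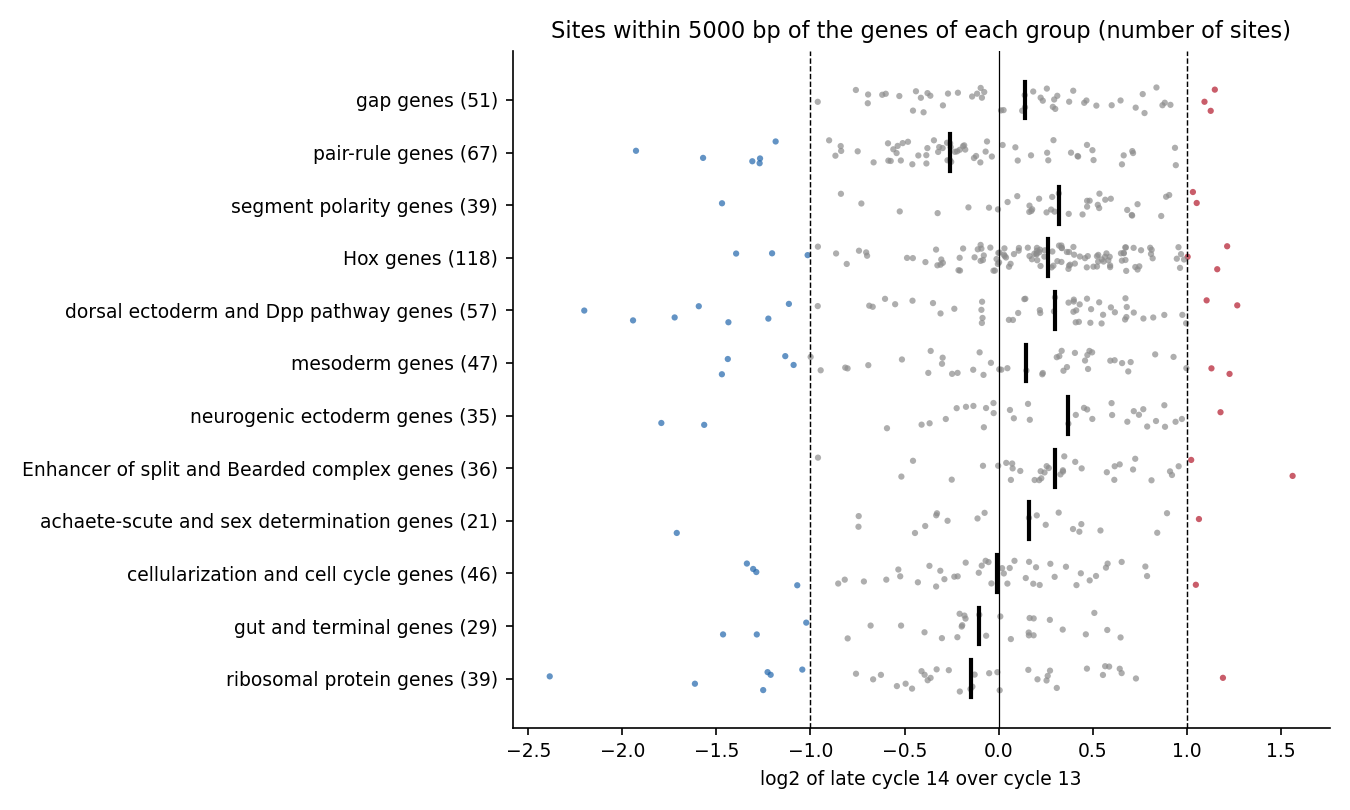
The log2 ratio of late cycle 14 over cycle 13 (horizontal) of each site within 5000 bp of the genes of 12 groups, with the number of sites in parentheses and a bar at the median. Red points are higher by 2-fold or more, blue points lower by 2-fold or more, and dashed lines mark 2-fold. The median is lowest for the pair-rule genes, at -0.26, and highest for the neurogenic ectoderm genes, at 0.37.

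The gap genes, which divide the embryo into broad regions along its length, had 51 sites with a median log2 ratio of 0.14, 3 of them higher by 2-fold or more and none lower. The highest sites of the single genes went both ways, with log2 ratios from -0.76 at btd to 0.91 at knrl. At the promoter of tll, a nuclear receptor gene of the embryo's ends, the value was 6696 at late cycle 14 and 5606 at cycle 13. The intergenic site of Kr, a zinc-finger repressor of the trunk, had 3107 at late cycle 14 and 3051 at cycle 13. The highest site of kni, a nuclear receptor gene of the abdomen, had 3004 at late cycle 14 and 4611 at cycle 13, and that of hb, a zinc-finger gene of the anterior, had 2588 at late cycle 14 and 3446 at cycle 13.

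The 3 gains of this group lay at weak sites. The sites were near hb, Kr and knrl. The one near hb had 193 at late cycle 14 and 88.5 at cycle 13, and the one near Kr 155 at late cycle 14 and 72.6 at cycle 13. At knrl, which encodes a nuclear receptor closely related to the product of kni, all 5 sites were higher, with log2 ratios from 0.60 to 1.15. Its neighbour kni had 2 of 7 sites above 0.

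The pair-rule genes, which set up the segments in stripes, had the lowest median of the 12 groups. Of their 67 sites 19 had a ratio above 0, against 6085 of all 11966. Lower by 2-fold or more were 6 (8.96%), a smaller share than the 16% of all sites. None was higher by 2-fold or more, against 3.94% of all sites. The median of -0.26 stayed below 0 under both other scalings and became 0.18, near the 0.17 of all sites, when copies of reads were removed. That setting counts at most 898 reads at a site, and a site filled at both stages takes a log2 ratio of 0.42. It therefore cannot resolve strong sites, in this group or in the others, and the shift is not a measure of copies alone. Among the 11 sites of eve, a homeobox gene expressed in stripes, 1 was lower by 2-fold or more, with 1256 at late cycle 14 and 3025 at cycle 13 (2R, 5865772). The promoter site of eve had 947 at late cycle 14 and 1692 at cycle 13.

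The other losses were at h, ftz, run and opa. All 5 sites of h, a bHLH repressor gene, were below 0. Its promoter had 7674 at late cycle 14 and 8009 at cycle 13, while the site at 8665430 on 3L had 151 at late cycle 14 and 574 at cycle 13. At ftz the promoter had 6012 at late cycle 14 and 6532 at cycle 13, while a site at 2694810 on 3R had 66.4 at late cycle 14 and 197 at cycle 13, and 8 of its 9 sites were below 0. The loss at run, a Runt-domain gene, was at a site with 70.4 at late cycle 14 and 174 at cycle 13. The zinc-finger gene opa had 2 losses, the stronger in coding sequence with 212 at late cycle 14 and 512 at cycle 13. The Pax homeobox gene prd had 5 of 9 sites above 0 and a median log2 ratio of 0.42.

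The segment polarity genes, which act within each segment after the pair-rule genes, had 39 sites with a median log2 ratio of 0.32, and 31 were above 0, 2 were higher by 2-fold or more and 1, near hh, was lower, with 61.8 at late cycle 14 and 171 at cycle 13. At wg, which encodes the Wnt ligand, the highest site had 1665 at late cycle 14 and 898 at cycle 13, and 6 of 7 sites were above 0. At en, a homeobox gene, all 5 sites were above 0, with a highest value of 476 at late cycle 14 and 329 at cycle 13. Its neighbour and relative inv had 2 of 5 sites above 0, and its highest had 317 at late cycle 14 and 568 at cycle 13. The promoter of gsb, a Pax homeobox gene, had 1068 at late cycle 14 and 522 at cycle 13, a log2 ratio of 1.03 (0.92 to 1.15).

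The Hox genes, which give segments their identity, had 118 sites with a median log2 ratio of 0.26, 3 higher by 2-fold or more and 3 lower. At Antp 30 of 35 sites were above 0, and the highest had 1942 at late cycle 14 and 1214 at cycle 13. At Abd-B 7 of 8 sites were above 0, and the highest, in an intron, had 3457 at late cycle 14 and 1967 at cycle 13. At abd-A 10 of 19 sites were above 0, and its highest site had 5707 at late cycle 14 and 6579 at cycle 13.

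The genes of the dorsal ectoderm and the Dpp pathway had 57 sites with a median log2 ratio of 0.30, 2 higher by 2-fold or more and 7 lower. The highest site of dpp, a BMP ligand gene, had 5511 at late cycle 14 and 4177 at cycle 13, and the promoter of zen, a homeobox gene of the amnioserosa, had 6991 at late cycle 14 and 6632 at cycle 13. At scw, which encodes a second BMP ligand, all 6 sites were below 0 and the highest had 1799 at late cycle 14 and 2634 at cycle 13. The T-box genes Doc1, Doc2 and Doc3 had 3 of 4, 7 of 8 and 4 of 5 sites above 0.

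The gene ush, which encodes a zinc-finger cofactor of GATA proteins, carried both directions. Of its 9 sites, 2 were higher by 2-fold or more and 3 lower. A site at 522415 on 2L had 248 at late cycle 14 and 103 at cycle 13, a log2 ratio of 1.27 (1.02 to 1.52), while a coding site at 544110, nearest to Spp, had 1327 at late cycle 14 and 3591 at cycle 13, a log2 ratio of -1.44 (-1.50 to -1.37).

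The mesoderm genes had 47 sites with a median log2 ratio of 0.15, 2 higher by 2-fold or more and 4 lower. The early determinants twi and sna, a bHLH activator and a zinc-finger repressor, had 2 of 5 and 2 of 9 sites above 0. The promoter of sna had 3969.9 at late cycle 14 and 4257 at cycle 13. The FGF receptor gene htl had 3 of 3 sites above 0 and a highest value of 394 at late cycle 14 and 179.6 at cycle 13. For stumps, whose product acts downstream of that receptor, it was 4 of 4, and for tin, a homeobox gene of the heart, 5 of 5. Mef2, a muscle regulator, had 4 of 11 above 0 and 3 lower by 2-fold or more, with a median log2 ratio of -0.36.

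The neurogenic ectoderm genes had 35 sites with a median log2 ratio of 0.37, 1 higher by 2-fold or more and 2 lower. The 2 losses were near sim and SoxN, with log2 ratios of -1.79 and -1.56. The homeobox gene ind of the intermediate neural column had all 5 sites between 0.77 and 1.18. Its highest had 4502 at late cycle 14 and 2642 at cycle 13 (3L, 15033732), and a second at 15032750 had 2207 at late cycle 14 and 975 at cycle 13. The promoter of sim, the bHLH gene of the midline, had 5717 at late cycle 14 and 3770 at cycle 13, and 5 of its 8 sites were above 0. At rho, which encodes a protease that activates EGF ligands, 1 of 4 sites was above 0.

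The genes of the Enhancer of split and Bearded complexes, which are targets and modulators of Notch signalling, had 36 sites, 30 of them above 0, with 2 higher by 2-fold or more and none lower. The intergenic site nearest to HLHm7, a bHLH repressor gene, had 1895 at late cycle 14 and 1000.5 at cycle 13 (3R, 21862060), and the promoter of malpha had 2507 at late cycle 14 and 1528 at cycle 13. The promoter of Brd had 4869 at late cycle 14 and 4169 at cycle 13. The median of this group was 0.30.

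The achaete-scute and sex determination genes had 21 sites with a median log2 ratio of 0.16. The promoter of sc, a proneural gene that also takes part in sex determination, had 7417 at late cycle 14 and 5944 at cycle 13, and that of l(1)sc had 4709.6 at late cycle 14 and 3580.1 at cycle 13. The other sex determination genes had their main sites below 0. The promoter of sisA, a bZIP gene, had 4340.0 at late cycle 14 and 5238 at cycle 13, and that of Sxl, the switch gene, had 3166 at late cycle 14 and 4308 at cycle 13.

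The genes of cellularization and the cell cycle had 46 sites with a median log2 ratio of -0.01, which was 0.07 with the scale set by reads outside sites and 0.17 with copies of reads removed. The genes nullo, Sry-alpha and bnk act briefly when the blastoderm cellularizes. The promoter of nullo had 2064 at late cycle 14 and 3639 at cycle 13, and all 3 of its sites were below 0. The promoter of Sry-alpha had 3291 at late cycle 14 and 3415 at cycle 13, and that of bnk 5684 at late cycle 14 and 6416 at cycle 13. An intronic site of CycA, a mitotic cyclin gene, was the 1 site of the group higher by 2-fold or more, with 784 at late cycle 14 and 379 at cycle 13. Lower by 2-fold or more were 4 sites (8.7%), near Sry-alpha, bnk, kuk and CycE, with log2 ratios from -1.34 to -1.07.

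The gut and terminal genes had 29 sites with 0 higher by 2-fold or more and 3 lower. The median log2 ratio was -0.10, which was 0.24 with copies of reads removed. At cad, a homeobox gene of the posterior and the gut, 1 of 8 sites was above 0, and its promoter had 3436 at late cycle 14 and 3966 at cycle 13. The T-box gene byn of the hindgut had a highest site with 5725 at late cycle 14 and 5032 at cycle 13.

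The ribosomal protein genes, which every cell uses, had 39 sites near 12 of 17 genes, with 1 higher by 2-fold or more and 6 lower. The median log2 ratio was -0.15, which was 0.04 with copies of reads removed. The group's share of losses, 15.4%, was near the 16% of all sites.

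Sites of one gene often differed from each other. Of the 98 genes with at least 2 sites, 63 had sites whose ratios were 2-fold or more apart, 16 had every site above 0 and 10 every site below 0. The spread within a gene grows with its number of sites, and some genes share sites. Sets of sites chosen without regard to genes were not counted, so these counts do not set genes apart. Neighbours 2000 to 20000 bp apart differed by 2-fold or more in 31.2% of pairs across the arms. In 2 genes, ush and hh, the ligand gene of the Hedgehog pathway, a site higher by 2-fold or more stood with a site lower by 2-fold or more.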

How the data were processed

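ZLD ChIP-seq reads and peaks of the late cycle 14 and cycle 13 libraries were used. Their reads came from lanes of the same flow cell. The authors mapped reads to dm3 with Bowtie 0.12.5, keeping reads with a unique place and at most 2 mismatches, and ran the Grizzly Peak caller on each library alone. The deposited peak lists give intervals and peak heights as a coverage signal per 10000000 reads. The deposited read files hold 1 line per 25 bp read, copies included, and a score column that was not used.

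From these files, reads were extended to 150 bp and counted over 300 bp with numpy 2.4.6 under Python 3.11.15, and intervals were computed with scipy 1.17.1. Sites were peak midpoints joined within 150 bp. In ratios, read numbers under 3 were set to 3. Counts and ratios carry exact 95% intervals (Poisson, and binomial given the sum of both counts), which cover counting error only and treat copies as separate reads. With 1 library per stage there was no test. The functions were tested on simulated data.

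Members and gene lists were chosen with earlier results of these data known. Sites named are the 10 largest and 10 smallest ratios among sites on the arms at or above the 75th percentile, the 5 highest of each stage, the extremes of each genomic label, and sites within 5000 bp of listed genes. Labels, nearest genes and gene positions were taken from the parts of the study's dm3 tables that were used (1759 rows for the pooled libraries, 1761 for late cycle 14, 1759 for cycle 13 and 1762 for cycle 8), and no value was taken from them. The limits of 1000 for labelled sites and of 400 kb on 3L were chosen after the values were seen. Sequences and motifs were not analysed here. The alternatives were other joining distances and overlaps, other scalings, 1 read per position and strand, other windows, background subtraction, and subsets of sites.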

Additional observations from a re-analysis of the deposited data

How the results depend on the processing

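The share of sites in both lists was 62.3% with midpoints joined within 50 bp, 67.3% within 300 bp and 67.8% for the higher 50% of the peaks of each list, against 66.3%. Sites higher at late cycle 14 by 2-fold or more numbered 244 when scaled by the median ratio of shared sites, 194 with 1 read per position and strand, 720 with the background subtracted, 241 among the 5983 sites at or above the median value, and 221 in both lists only, against 472. Sites lower by 2-fold or more numbered 1189 with 1 read per position and strand, 782 at or above the median value and 585 in both lists only, against 1919. The median log2 ratio was 0.10 scaled to reads outside sites, -0.10 scaled by shared sites, 0.17 with 1 read per position and strand, 0.16 at or above the median value, 0.12 in both lists only and -0.0068 for the 10744 sites more than 450 bp from the next, a setting chosen after seeing the data, as were labels from single tables, against 0.02. Lower sites outnumbered higher ones under every one of these settings. Of 29 named sites 23 passed 2-fold, and 13 of these still did with 1 read per position and strand, where none changed sign. That count has a limit of 898 reads per site, and 342 sites at late cycle 14 and 471 at cycle 13 reached 80% of it. A site filled at both stages then has a log2 ratio of 0.42, which only reflects the totals of distinct reads, so this setting cannot resolve the strongest sites. The other scalings and windows kept all 23. For labels from single tables, the median log2 ratio of coding sites was -0.61 with the pooled table, -0.16 with the late cycle 14 table and -0.47 with the cycle 13 table, lowest of the 5 labels compared in each. No paired analysis was possible because each stage has 1 library and no test was run. Depth limits the weakest sites, where a ratio can rest on few reads.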
